A study of Mus musculus with 16 samples.

Results

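The genes described here are factors of ribosome biogenesis, the building of ribosomes in the nucleolus, measured in B16-OVA tumors under inhibition of the kinase MEK and activation of the receptor CD40. The list held 41 genes, named for their role with earlier results of these data known, and 40 of them had at least 1 probe set (the array's unit of measurement) that carries no other gene symbol, out of 18193 genes measured that way. Mrto4, the remaining one, was not analysed here. Each gene was represented by its probe set of highest mean over all arrays, of 81 probe sets in all for the 40 genes, and all 40 lay above the background level of 4.94 on the log2 scale, set from olfactory receptor probe sets.

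B16-OVA cells, from a melanoma of the mouse and engineered to make ovalbumin as a model antigen, were grown under the skin of C57BL/6-Ly5.1 mice aged 6 to 12 weeks. Each of 16 tumors, 4 in each of 4 groups and each from a different mouse, was hybridized to 1 array on day 18 after the cells were injected. Control mice received the vehicle of the drug together with a control IgG, and the CD40 group received the vehicle with an agonist antibody against CD40 on treatment days 3, 5 and 7 and again 1 day before analysis. The MEKi group received the MEK inhibitor GDC-0623 daily at 30 mg/kg with control IgG, and the MEKi+CD40 group received both agents. Tumors were whole or in pieces (the labels and the series text differ), so that tumor cells, immune cells and stroma were measured together, and fewer cells of a type and less RNA per cell cannot be told apart. The values are log2 signals after robust multichip averaging (RMA), and a difference of 1 is a doubling. All 10 melanocyte markers, such as Tyrp1 and Dct, were above background in all 16 tumors, while 6 of 9 keratinocyte markers, among them Krt14 and Trp63, were above it in none. Transcripts of skeletal muscle, which melanoma does not make, stood out in 3 tumors, namely CD40 tumor 3 and MEKi+CD40 tumors 1 and 3, where the mean of 15 muscle genes was 2.85, 7.09 and 4.15 above the control mean, beside 0.80 in MEKi tumor 2 and values from -0.04 to 0.23 in the other 12. MEKi+CD40 tumor 1 also had the widest gap between the 3′ and 5′ control probe sets of beta-actin, 0.91 against 0.21 to 0.44 in the other 15 tumors.

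Ribosomes are made in the nucleolus, where RNA polymerase I transcribes a long precursor RNA that is then cut, chemically modified and folded with ribosomal proteins into a small and a large subunit. Box C/D and box H/ACA particles are complexes of small nucleolar RNA and protein that methylate the precursor and convert its uridines to pseudouridine. Many of these factors are known targets of the transcription factor MYC, and their supply is tied to cell growth, with ERK, the kinase that MEK activates, among the signals that stimulate RNA polymerase I.

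In tumors treated with both agents all 40 factors had a lower mean signal than in control, CD40 and MEKi tumors alike, whereas under either agent alone no factor differed from control by more than 0.25. The median difference of the 40 was -0.63 against control (1.54-fold lower), -0.72 against CD40 and -0.71 against MEKi, beside a median over all genes of 0.03, 0.04 and 0.01 in the same comparisons. Of the genes above background, 47.8% had a negative difference against control. For the CD40 group minus control the median was 0.08, with single differences from -0.08 to 0.25, and for MEKi minus control it was 0.08, from -0.07 to 0.25. Without control tumor 2 both medians were 0.01, with 19 and 18 of 40 factors negative, and without CD40 tumor 3 the CD40 median was 0.16. None of the 40 factors had an unadjusted p under 0.05 in either of these comparisons by limma (for all genes, 5.94% lower and 4.04% higher for CD40, and 4.21% lower and 3.69% higher for MEKi), and the smallest adjusted p among them were 0.609 and 0.734.

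**Figure D1:**
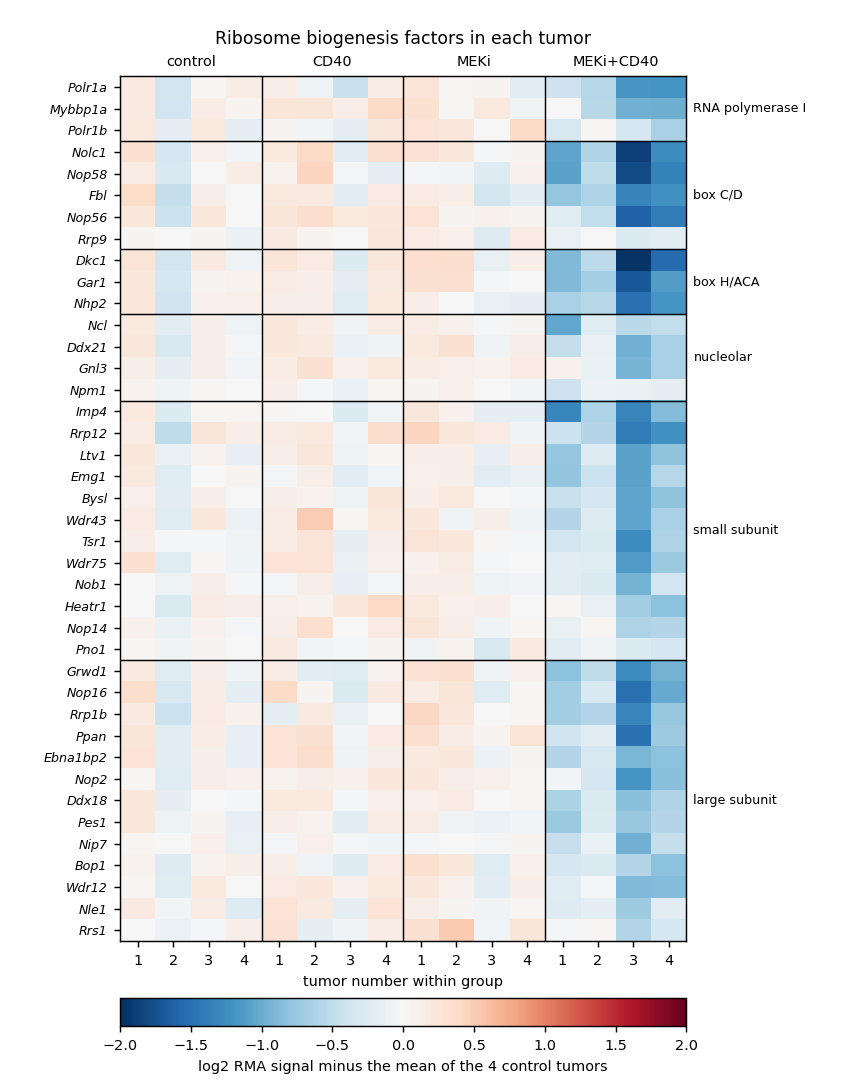
Signal of the 40 factors in each of the 16 tumors, as log2 RMA signal minus the mean of the 4 control tumors (color scale from -2 to 2), with rows grouped by role and columns by treatment. The 4 MEKi+CD40 tumors are blue in nearly every row, deepest in tumor 3, and the other 12 tumors lie close to 0.

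Averaged over the 40 factors, the signal was 10.22, 9.82, 10.15 and 10.03 in control tumors 1 to 4, and 9.56, 9.74, 9.0 and 9.27 in MEKi+CD40 tumors 1 to 4. The CD40 tumors averaged 10.20, 10.20, 9.95 and 10.19, and the MEKi tumors 10.25, 10.19, 9.99 and 10.09. All 4 MEKi+CD40 tumors thus lay below the other 12, although the highest of them, tumor 2, was only a little below control tumor 2, the lowest of the controls. The spread among the MEKi+CD40 tumors was wide, with a median SD of 0.34 over the factors against 0.20 in control, 0.17 in CD40 and 0.15 in MEKi tumors. Tumor 3 was the lowest of the 4 for 32 of 40 factors and tumor 2 the highest for 31. Tumors 3 and 4 were below every control for 40 and 39 factors, beside 29.0% and 26.1% of all genes, and tumors 1 and 2 for 30 and 27, beside 33.7% and 24.0%. Muscle transcripts stood out in tumor 3 and not in tumor 4. Averaged over the factors, the difference from the control mean was -1.05 in tumor 3, -0.79 in tumor 4, -0.49 in tumor 1, the one richest in muscle, and -0.32 in tumor 2, where the muscle genes were at the level of the controls.

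How many of the differences passed the test depended on the comparison. Against the CD40 tumors 17 of 40 factors fell at a Benjamini-Hochberg adjusted p under 0.05 (limma, 8 arrays, adjusted over 45037 probe sets), beside 3.29% of all genes. Against the MEKi tumors 6 of 40 fell, beside 0.786% of all genes, and these 6 were Nolc1, Gar1, Imp4, Rrp1b, Ddx18 and Grwd1, all of them also among the 17. Against control none passed, and of all genes 0% were called lower, with adjusted p of the factors starting at 0.052. There 34 of 40 were lower at an unadjusted p under 0.05, beside 14.5% of all genes. With all 16 arrays in 1 fit, which estimates the spread from all 4 groups, 30 factors were called lower against control (9.40% of all genes), 35 against CD40 (7.98%) and 31 against MEKi (8.35%). That fit takes 1 spread for all groups, whereas the median SD of the factors was 0.34 in MEKi+CD40 and 0.15 to 0.20 in the other groups. It can therefore understate the error of these comparisons. No factor was called higher in any comparison. The interaction, that is, the difference of the combination from the sum of both single effects, was negative for all 40 with a median of -0.81, and 38 had an unadjusted p under 0.05, beside 8.35% of all genes. None passed after adjustment by limma, where the smallest adjusted p was 0.097, and 20 did with array weights, beside 1.70% of all genes.

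Counted by tumors rather than by a fitted test, all 4 MEKi+CD40 tumors were below all 4 controls for 22 of 40 factors, beside 10.4% of all genes. The count was 33 against CD40 (8.20% of all genes) and 31 against MEKi (8.99%). For 20 factors the 4 MEKi+CD40 tumors were below all 12 other tumors, beside 4.42% of all genes. The 3 comparisons share the MEKi+CD40 tumors, and the factors were measured in the same RNA, so these counts are not independent of each other.

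**Figure D2:**
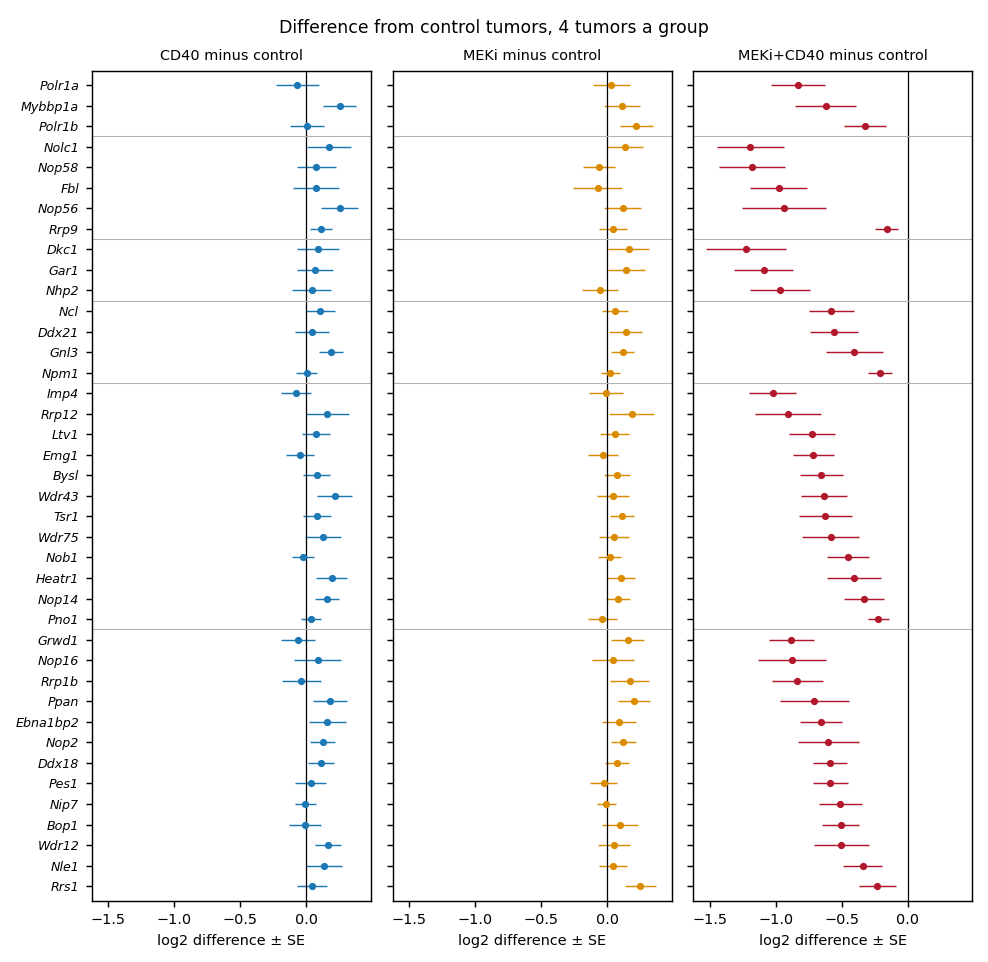
Log2 difference ± SE (limma, 4 tumors a group) of each of the 40 factors from control in CD40, MEKi and MEKi+CD40 tumors, grouped by role and ordered within a role by the difference under the combination. The first 2 panels scatter around 0, from -0.08 to 0.25, and every point of the third lies left of 0, from -1.23 to -0.16.

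Without the 3 tumors that hold muscle transcripts all 40 differences from control were still negative, with a median of -0.50 over the 2 remaining MEKi+CD40 tumors, and 0 factors passed against control, 12 against CD40 and 0 against MEKi, beside 0%, 2.63% and 0% of all genes. In 1 fit of the remaining 13 arrays, a setting chosen after the data had been seen, 6, 24 and 14 passed, beside 1.48%, 3.29% and 1.34% of all genes. The calls also rested on single tumors. Against CD40 the 17 calls became 0 without any 1 of CD40 tumors 1, 2 and 4 or MEKi+CD40 tumors 3 and 4, 6 without CD40 tumor 3, 24 without MEKi+CD40 tumor 1 and 22 without tumor 2, and the share of all genes called was at most 0.0165% in the settings with 0 factors and 1.19%, 4.90% and 4.21% in the other 3. Against MEKi the 6 calls became 0 without any 1 of the MEKi tumors or MEKi+CD40 tumors 3 and 4, 11 without MEKi+CD40 tumor 1 and 21 without tumor 2, beside at most 0.286% of all genes in the settings with 0 factors and 1.55% and 3.08% in the others. Against control 7 passed without control tumor 2, 6 without MEKi+CD40 tumor 1, 18 without tumor 2, and 0 without any other, beside 3.02%, 2.41%, 5.15% and 0% of all genes. In each of these settings all 40 differences stayed negative.

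Other probe sets of the same genes gave a second reading. Among 34 further probe sets above background, covering 25 of the 40 factors, 32 were negative against control, 33 against CD40 and 34 against MEKi, with medians of -0.62, -0.65 and -0.70. The positive ones against control were probe sets of Imp4 (0.09) and Ebna1bp2 (0.07). A further probe set of Imp4 differed by -0.28, against -1.03 for its brightest one, so the size of the difference in Imp4 depends on the probe set. For Npm1 and Ddx21 it was the other way round, with -0.57 and -1.08 in the second probe set against -0.21 and -0.56 in the brightest.

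All 40 differences having the same sign, the promoters of the factors were searched for a pair of motifs, the E-box bound by MYC, CACGTG (its own reverse complement), and CCGGAAG or its reverse complement CTTCCGG, a core of the sites bound by ETS factors, some of which are phosphorylated by ERK. Both strands were searched, and no E-box of a factor shares bases with an ETS core. RefSeq promoters of the GRCm38.p6 build, 250 bases before to 50 after the transcription start, were found for 35 of the 40 factors (not for Bop1, Fbl, Npm1, Rrp12 and Rrs1). The E-box was present in 10 of the 35 genes (28.6%), beside 8.09% of all 27025 genes in the promoter table and 11.6% of the 10233 that were above background on the array. In 8 of the 10 it lay after the start, which is 22.9% of the 35, beside 1.80% of the genes above background. The ETS core was present in 12 of 35 (34.3%), beside 9.93% of all and 19.2% of those above background. The GC content of the promoters had a median of 57.2% for the factors and 60.3% for the genes above background. A match is a description of the letters and not evidence of binding. The 10 stretches of 30 bases around the E-box are given 5′ to 3′ on the gene's strand, with the E-box in capitals, in order of its distance from the start (from position -121 in Imp4 to position 40 in Mybbp1a, counted in bases from the start):
Imp4 (chr1:34439696-34439725, plus strand): acggtcttagacCACGTGacatcccaaatc
Nop2 (chr6:125131811-125131840, plus strand): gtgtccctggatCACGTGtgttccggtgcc
Pes1 (chr11:3963965-3963994, plus strand): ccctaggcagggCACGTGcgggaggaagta
Wdr43 (chr17:71616220-71616249, plus strand): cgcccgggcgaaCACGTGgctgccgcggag
Nle1 (chr11:82908355-82908384, minus strand): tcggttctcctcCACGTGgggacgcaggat
Tsr1 (chr11:74898092-74898121, plus strand): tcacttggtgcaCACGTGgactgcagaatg
Ltv1 (chr10:13193092-13193121, minus strand): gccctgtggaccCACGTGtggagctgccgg
Grwd1 (chr7:45830740-45830769, minus strand): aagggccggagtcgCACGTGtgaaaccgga
Pno1 (chr11:17211540-17211569, minus strand): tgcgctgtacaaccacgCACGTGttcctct
Mybbp1a (chr11:72441347-72441376, plus strand): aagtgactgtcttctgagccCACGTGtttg
Among the factors described tumor by tumor below, 5 hold the ETS core, and it is shown in capitals in the same way, with the match nearest the start for Emg1:
Nolc1 (chr19:46075822-46075851, plus strand): cgcgtgtgggaCCGGAAGcaacttctagat
Nhp2 (chr11:51619739-51619768, plus strand): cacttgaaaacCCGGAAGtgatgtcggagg
Grwd1 (chr7:45830810-45830839, minus strand): ggaggtgaaacCCGGAAGtgacgctctcac
Gar1 (chr3:129831421-129831450, minus strand): gcgccgccacaCTTCCGGaaacgtcgcgta
Emg1 (chr6:124712204-124712233, minus strand): gaatggcgcatCCGGAAGtcccgcctcttg
The 250 bases before the start are given whole for Imp4, which has its E-box there, and for Grwd1, which has both motifs, of which the ETS core falls in this stretch:
Imp4 (chr1:34439579-34439828, plus strand): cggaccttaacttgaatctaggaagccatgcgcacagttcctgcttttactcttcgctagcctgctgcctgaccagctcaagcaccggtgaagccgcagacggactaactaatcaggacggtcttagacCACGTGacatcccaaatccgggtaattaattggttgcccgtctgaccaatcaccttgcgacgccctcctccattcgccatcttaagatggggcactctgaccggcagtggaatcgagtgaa
Grwd1 (chr7:45830790-45831039, minus strand): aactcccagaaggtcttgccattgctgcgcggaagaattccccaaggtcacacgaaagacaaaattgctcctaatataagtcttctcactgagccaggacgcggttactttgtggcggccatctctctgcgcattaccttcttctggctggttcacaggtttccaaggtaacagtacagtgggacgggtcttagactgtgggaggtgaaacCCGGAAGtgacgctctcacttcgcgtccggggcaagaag
The factors with an E-box did not share a size of difference. Imp4 and Grwd1 were among the largest against control (-1.03 and -0.89), Mybbp1a (-0.63), Pes1 (-0.59), Ltv1 (-0.73), Wdr43 (-0.64), Tsr1 (-0.63) and Nop2 (-0.60) near the median, and Nle1 (-0.34) and Pno1 (-0.23) among the smallest. No E-box was found in the window of Dkc1, Nolc1, Nop58 or Gar1, which had the largest differences of the list beside Imp4.

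**Figure D3:**
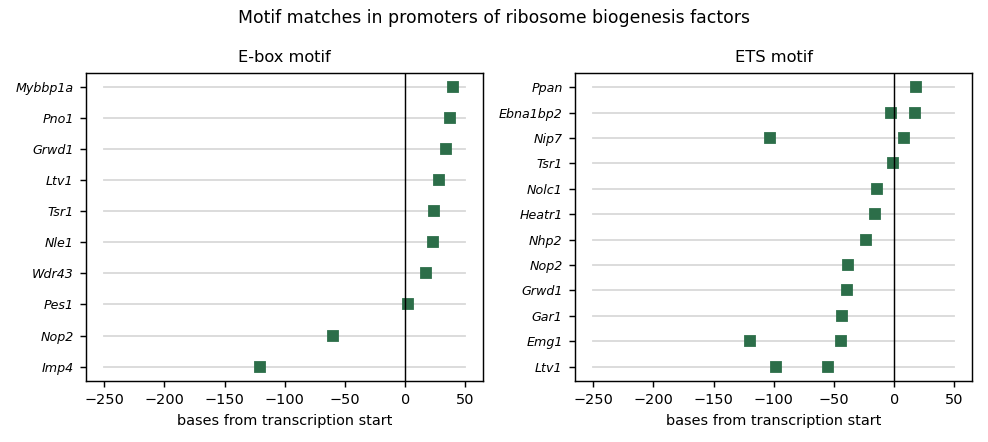
Position of each match of the E-box and of the ETS core in the RefSeq promoters of the factors, in bases from the transcription start (vertical line at 0), with 1 grey line per gene for the 300 bases searched. The E-boxes of 8 of 10 genes lie just after the start, and the ETS cores lie most often in the 50 bases before it.

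The 2 classes of small nucleolar particles held the largest differences. All 3 box H/ACA proteins fell against CD40, and their median difference was -1.10 against control, -1.16 against CD40 and -1.24 against MEKi. Dkc1, dyskerin, is the enzyme that makes pseudouridine. Dkc1 read 10.70, 10.08, 10.62 and 10.38 in the control tumors and 9.56, 9.92, 8.48 and 8.91 in the MEKi+CD40 tumors. The CD40 tumors gave 10.68, 10.61, 10.17 and 10.67 for Dkc1, and the MEKi tumors 10.78, 10.79, 10.29 and 10.57. Its difference was -1.23 against control (SE 0.30, limma adjusted p = 0.065) and -1.32 against CD40 (adjusted p = 0.047), and the 4 MEKi+CD40 tumors were below the 12 others, with an SD of 0.65 among themselves. Gar1, a subunit needed for the activity of the particle, was lower in the same tumors. Gar1 read 10.42, 9.84, 10.25 and 10.26 in the control tumors and 9.31, 9.51, 8.50 and 9.07 in the MEKi+CD40 tumors. For Gar1 the values under CD40 alone were 10.34, 10.33, 9.99 and 10.37, and under MEKi alone 10.49, 10.51, 10.15 and 10.20. Gar1 fell by 1.16 against CD40 (SE 0.21, adjusted p = 0.032) and fell by 1.24 against MEKi (adjusted p = 0.0496), with no overlap, and its difference from control was -1.10 (adjusted p = 0.052). Nhp2 is a core protein of the same particle. Nhp2 read 12.38, 11.76, 12.24 and 12.26 in the control tumors and 11.51, 11.60, 10.67 and 10.98 in the MEKi+CD40 tumors. In the CD40 tumors Nhp2 read 12.27, 12.27, 11.92 and 12.35, and in the MEKi tumors 12.30, 12.15, 12.01 and 11.97. Here the highest treated tumor, 11.60, was below the lowest of the others, 11.76 in control tumor 2, and Nhp2 fell by 1.01 against CD40 (SE 0.21, adjusted p = 0.040).

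Of the 5 factors grouped under box C/D 3 fell against CD40, with a median difference of -0.98 against control and -1.19 against CD40. Nolc1, 1 of the 3, is a chaperone of small nucleolar particles and not a core protein of the box C/D class. Nolc1 had the largest difference of the 40 from CD40. Nolc1 read 10.66, 10.02, 10.46 and 10.30 in the control tumors and 9.30, 9.76, 8.50 and 9.10 in the MEKi+CD40 tumors. The CD40 tumors gave 10.56, 10.75, 10.13 and 10.68 for Nolc1, and the MEKi tumors 10.65, 10.57, 10.34 and 10.41. It fell by 1.37 against CD40 (SE 0.26, adjusted p = 0.034) and fell by 1.33 against MEKi (adjusted p = 0.0496), and differed by -1.20 from control (adjusted p = 0.053). Nop58 is a scaffold protein of the particle. Nop58 read 11.22, 10.77, 11.09 and 11.23 in the control tumors and 10.00, 10.57, 9.29 and 9.73 in the MEKi+CD40 tumors. For Nop58 the values under CD40 alone were 11.14, 11.51, 11.06 and 10.90, and under MEKi alone 11.04, 11.03, 10.82 and 11.17. Nop58 fell by 1.26 against CD40 (adjusted p = 0.038), with tumor 2 well above the other 3 MEKi+CD40 tumors and still below all 12 tumors of the other groups. Fbl, fibrillarin, is the methyltransferase. Fbl read 12.08, 11.25, 11.84 and 11.71 in the control tumors and 10.95, 11.11, 10.39 and 10.51 in the MEKi+CD40 tumors. In the CD40 tumors Fbl read 11.91, 11.90, 11.49 and 11.88, and in the MEKi tumors 11.89, 11.85, 11.36 and 11.49. Its treated tumors did not reach any of the others, and it fell by 1.06 against CD40 (SE 0.18, adjusted p = 0.030) and differed by -0.98 from control (adjusted p = 0.055). Nop56, the partner of Nop58, differed by -0.94 from control (SE 0.32, adjusted p = 0.14), and MEKi+CD40 tumor 1 at 10.95 lay above control tumor 2 at 10.76. The other probe set of Nop56 differed by -1.07 from control. Rrp9, which binds the U3 RNA, was the exception, with a difference of -0.16 from control and -0.28 from CD40, neither of which passed.

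**Figure D4:**
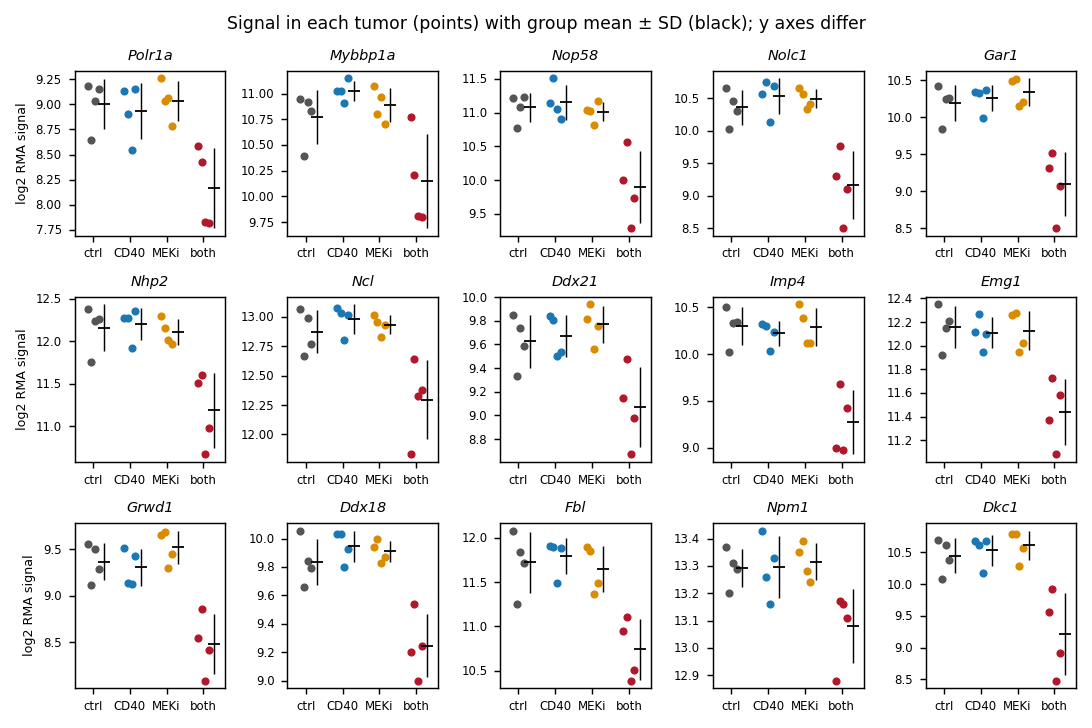
Log2 RMA signal of 15 factors in each tumor (points, left to right tumors 1 to 4) with the group mean ± SD (black), for control (ctrl), CD40, MEKi and MEKi+CD40 (both), each panel with its own axis. The MEKi+CD40 points are the lowest in each panel except that Mybbp1a, Ddx21, Polr1a and Npm1 overlap other tumors.

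RNA polymerase I itself was represented by its 2 largest subunits and by Mybbp1a, a nucleolar protein that acts on transcription and processing of ribosomal RNA. None of these 3 passed in any comparison of 8 arrays. Polr1a encodes the catalytic subunit. Polr1a read 9.18, 8.64, 9.03 and 9.15 in the control tumors and 8.58, 8.43, 7.83 and 7.82 in the MEKi+CD40 tumors. The CD40 tumors gave 9.13, 8.90, 8.55 and 9.15 for Polr1a, and the MEKi tumors 9.26, 9.03, 9.06 and 8.78. Its difference was -0.84 from control (SE 0.21, adjusted p = 0.066) and -0.87 from MEKi, with no overlap in either, whereas CD40 tumor 3 at 8.55 lay below MEKi+CD40 tumor 1 at 8.58. Mybbp1a read 10.95, 10.39, 10.92 and 10.83 in the control tumors and 10.77, 10.21, 9.81 and 9.80 in the MEKi+CD40 tumors. For Mybbp1a the values under CD40 alone were 11.02, 11.02, 10.91 and 11.15, and under MEKi alone 11.07, 10.80, 10.97 and 10.70. Mybbp1a was at control level in MEKi+CD40 tumor 1 and lower in the other 3, with a difference of -0.63 from control (SE 0.23, adjusted p = 0.16) and of -0.88 from CD40 (adjusted p = 0.052). Polr1b differed by -0.32 from control and -0.55 from MEKi.

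The 4 factors grouped as nucleolar proteins had a median difference of -0.48 against control in their brightest probe sets, and none passed in any comparison of 8 arrays. The roles were not tested against each other. Ncl, nucleolin, binds the precursor RNA. Ncl read 13.07, 12.67, 12.99 and 12.77 in the control tumors and 11.83, 12.64, 12.33 and 12.38 in the MEKi+CD40 tumors. In the CD40 tumors Ncl read 13.08, 13.03, 12.80 and 13.02, and in the MEKi tumors 13.02, 12.96, 12.83 and 12.93. Its lowest value was in tumor 1, not in tumor 3 as for most factors, and its difference from CD40 was -0.69 (SE 0.16, adjusted p = 0.054). Its 3 other probe sets differed by -0.80, -1.01 and -0.40 from control, against -0.58 for the brightest. Npm1, nucleophosmin, a histone chaperone, also serves late steps of the large subunit. Npm1 read 13.37, 13.20, 13.31 and 13.29 in the control tumors and 12.88, 13.17, 13.16 and 13.11 in the MEKi+CD40 tumors. The CD40 tumors gave 13.43, 13.26, 13.16 and 13.33 for Npm1, and the MEKi tumors 13.35, 13.39, 13.28 and 13.24. The treated tumors were all below the 4 controls, by -0.21 on average (SE 0.09, adjusted p = 0.21), but CD40 tumor 3 at 13.16 lay among them, and the other probe set of Npm1 differed by -0.57. Ddx21 is an RNA helicase that acts with RNA polymerase I. Ddx21 read 9.85, 9.33, 9.74 and 9.59 in the control tumors and 9.15, 9.48, 8.67 and 8.98 in the MEKi+CD40 tumors. For Ddx21 the values under CD40 alone were 9.84, 9.81, 9.50 and 9.54, and under MEKi alone 9.82, 9.94, 9.56 and 9.76. MEKi+CD40 tumor 2 overlapped the controls, and the difference was -0.56 (SE 0.18, adjusted p = 0.125), with -1.08 in the other probe set. Gnl3, nucleostemin, a GTP-binding protein of stem and tumor cells, differed by -0.41 from control, and MEKi+CD40 tumors 1 and 2 (10.41 and 10.19) lay within the range of the controls (10.14 to 10.44).

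Among 12 factors of the small subunit 6 fell against CD40, namely Imp4, Emg1, Wdr43, Rrp12, Bysl and Ltv1, and 1, Imp4, fell against MEKi. The median difference of the 12 was -0.63 against control, from -1.03 in Imp4 to -0.23 in Pno1. Imp4 belongs to the U3 particle that directs the first cuts of the precursor. Imp4 read 10.50, 10.02, 10.33 and 10.34 in the control tumors and 9.0, 9.68, 8.98 and 9.43 in the MEKi+CD40 tumors. In the CD40 tumors Imp4 read 10.32, 10.30, 10.03 and 10.24, and in the MEKi tumors 10.53, 10.38, 10.12 and 10.12. It fell by 0.95 against CD40 (SE 0.17, adjusted p = 0.031) and fell by 1.02 against MEKi (adjusted p = 0.0496), all 4 treated tumors lying under 9.7 and all 12 others at or above 10.02. Its adjusted p against control was 0.052, and all these values are of its brightest probe set, which differed more than its others. Emg1 methylates the RNA of the small subunit. Emg1 read 12.35, 11.92, 12.15 and 12.21 in the control tumors and 11.37, 11.73, 11.08 and 11.58 in the MEKi+CD40 tumors. The CD40 tumors gave 12.12, 12.27, 11.95 and 12.10 for Emg1, and the MEKi tumors 12.26, 12.28, 11.95 and 12.02. Emg1 fell by 0.67 against CD40 (SE 0.14, adjusted p = 0.042) with no overlap. Rrp12, a factor of late processing and export, fell by 1.07 against CD40 (adjusted p = 0.038), and Wdr43, a part of the complex that joins the precursor first, fell by 0.85 (adjusted p = 0.037). Bysl and Ltv1, which act on the maturing particle, differed by -0.74 and -0.80 from CD40, and both passed. Tsr1 and Nob1, the latter the nuclease of the last cut, differed by -0.63 and -0.46 from control, with no overlap but no call. Heatr1 (-0.41), Nop14 (-0.33) and Pno1 (-0.23) had the smallest differences of the class.

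Of 13 factors of the large subunit 5 fell against CD40, namely Ddx18, Ebna1bp2, Grwd1, Rrp1b and Pes1, and 3, Grwd1, Rrp1b and Ddx18, fell against MEKi. The median was -0.59 against control, from -0.89 in Grwd1 to -0.23 in Rrs1. Grwd1 is a chaperone for a ribosomal protein of the large subunit. Grwd1 read 9.55, 9.12, 9.50 and 9.29 in the control tumors and 8.55, 8.86, 8.09 and 8.42 in the MEKi+CD40 tumors. For Grwd1 the values under CD40 alone were 9.51, 9.14, 9.13 and 9.43, and under MEKi alone 9.65, 9.68, 9.30 and 9.45. It fell by 0.82 against CD40 (SE 0.17, adjusted p = 0.038) and fell by 1.04 against MEKi (adjusted p = 0.0496), and differed by -0.89 from control (adjusted p = 0.052). The highest treated tumor, 8.86, was below the lowest of all others, 9.12. Ddx18 is an RNA helicase. Ddx18 read 10.05, 9.66, 9.84 and 9.79 in the control tumors and 9.20, 9.54, 9.0 and 9.24 in the MEKi+CD40 tumors. In the CD40 tumors Ddx18 read 10.03, 10.03, 9.80 and 9.93, and in the MEKi tumors 9.94, 10.00, 9.83 and 9.87. Ddx18 fell by 0.70 against CD40 (SE 0.12, adjusted p = 0.031) and fell by 0.67 against MEKi (adjusted p = 0.0496), again with no overlap. Rrp1b fell by 0.80 against CD40 and fell by 1.01 against MEKi. In the complex of Pes1, Bop1 and Wdr12, which is needed to process the large subunit RNA, Pes1 fell by 0.62 against CD40 (adjusted p = 0.044), while Bop1 (-0.50, adjusted p = 0.092) and Wdr12 (-0.67, adjusted p = 0.092) did not pass. Their other probe sets above background differed from CD40 by -0.15 for Pes1, -0.18 for Bop1 and -0.635 for Wdr12. How these genes compare with each other therefore depends on the probe set. Nop16 differed by -0.97 and Ppan by -0.89 from CD40, larger than the 5 of this class that passed, but with wider spread (SE 0.25 in both). For Rrs1, MEKi+CD40 tumors 1 and 2 (10.87 and 10.92) lay within the range of the controls (10.78 to 11.03). These values are of its brightest probe set, and its other probe set differed by -0.45 from control.

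Other genes of the pathway were read beside the factors. Of 84 further assembly factors 81 were lower against control, with a median of -0.47. Here 0 passed against control by limma (61 were lower at an unadjusted p under 0.05, beside 14.5% of all genes). Against CD40 18 fell and against MEKi 3, beside 3.29% and 0.786% of all genes. In the 16-array fit 47, 57 and 52 were called lower, beside 9.40%, 7.98% and 8.35% of all genes. The 4 with the smallest p against control were Bms1, a GTPase of the small subunit (-0.54, SE 0.10), Rrp15 (-1.16, SE 0.25), Brix1 (-0.82, SE 0.19) and the helicase Ddx27 (-0.89, SE 0.21), and each of them fell against CD40, with adjusted p of 0.034, 0.046, 0.0496 and 0.038. Messages of the cytosolic ribosomal proteins, the structural parts of the ribosome, had a median difference of -0.09 from control over the 43 of 78 that had a probe set of their own. Of the 43, 36 were negative against control and 13 had all 4 MEKi+CD40 tumors below all 4 controls (10 against CD40 and 9 against MEKi), beside 10.4%, 8.20% and 8.99% of all genes. The mean of the list was 12.54 to 12.63 in MEKi+CD40 tumors and 12.65 to 12.75 in control tumors. By limma 0 of the 43 passed in any comparison of 8 arrays. At an unadjusted p under 0.05, 8 were lower than control, beside 14.5% of all genes. At that threshold 6 were lower than CD40 and 6 lower than MEKi, beside 4766 and 5318 of 45037 probe sets. In the 16-array fit 4, 5 and 3 of the 43 were called lower, close to the 9.40%, 7.98% and 8.35% of all genes. The 4 with the smallest p against control were Rps25 (-0.79, SE 0.18, adjusted p = 0.057), Rps19 (-0.28), Rpl14 (-0.51) and Rpsa (-0.23). Rps19 and Rpsa averaged 13.62 and 13.76 in control tumors, where the highest value on any array was 14.75, and Rps25 and Rpl14 averaged 10.73 and 8.63. Whether differences are understated at such signals was not tested, nor was the difference between the factors and the ribosomal proteins.

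**Figure D5:**
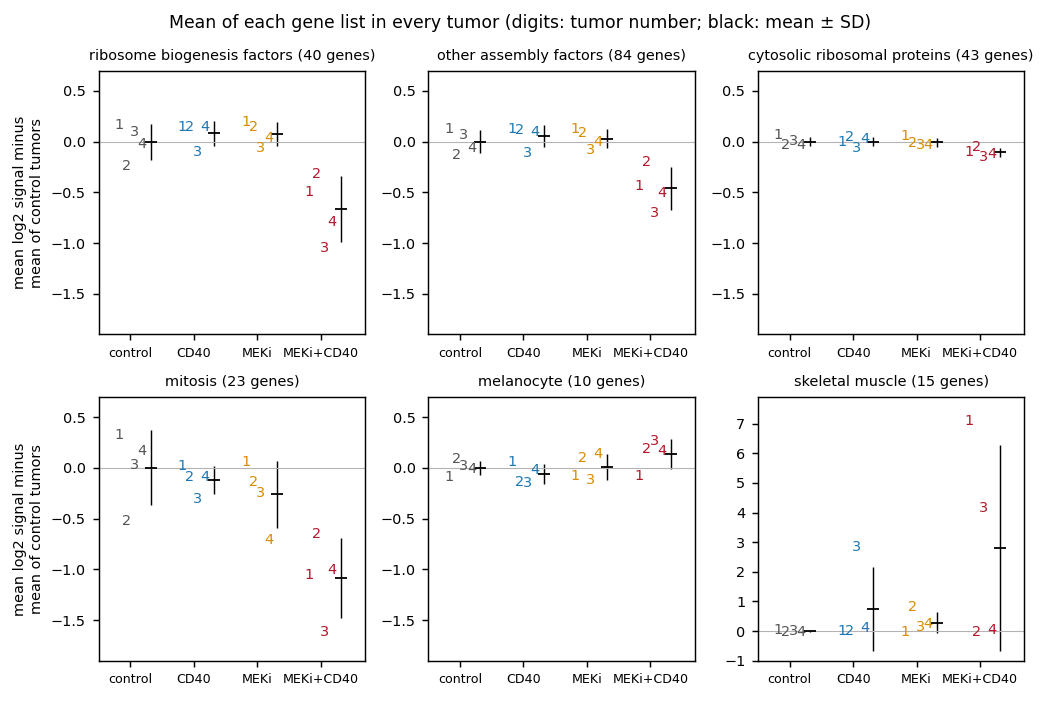
Mean log2 signal of 6 gene lists in every tumor, minus the mean of the control tumors. Digits are tumor numbers within a group and black marks are the group mean ± SD. The factors and the mitosis genes are lowest in MEKi+CD40 tumor 3, the ribosomal proteins move by at most 0.15 and the muscle genes (on another axis) stand out in MEKi+CD40 tumors 1 and 3 and CD40 tumor 3.

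Myc, the transcription factor upstream of many of these genes, read 9.28, 9.53, 8.84 and 9.13 in control tumors and 8.67, 8.73, 6.88 and 8.95 in MEKi+CD40 tumors. In the CD40 tumors it read 9.42, 9.86, 9.21 and 8.90, and in the MEKi tumors 9.79, 9.54, 9.38 and 9.21. The difference from control was -0.89 (SE 0.43, adjusted p = 0.28). MEKi+CD40 tumors 1, 2 and 3 were below every tumor of the other groups, by far the most in tumor 3, which was also lowest for most factors. Tumor 4, the second lowest for the factors on average, was within the range of the controls. Of 16 genes of the MYC network, 2 of which (Ncl and Npm1) are also among the 40 factors, 11 were lower and 5 higher than control, with a median of -0.34. By limma 0 passed against control. At an unadjusted p under 0.05, 8 were lower, beside 14.5% of all genes, and 2 higher, beside 3873 of 45037 probe sets. Mxd4 and Mxd1, antagonists that pair with the same partner as MYC, lay on the other side. Mxd4 rose by 1.15 against CD40 (SE 0.15, adjusted p = 0.025) and differed by 0.79 from control, and Mxd1 rose by 0.98 against MEKi (adjusted p = 0.0496) and differed by 0.73 from control. Odc1, a MYC target that makes polyamines, fell by 0.54 against CD40 (adjusted p = 0.027), and Nme1 differed by -0.59 from control (adjusted p = 0.057). Disturbed ribosome assembly is known to stabilize p53, and of 17 p53 targets 10 were higher and 7 lower than control, with a median of 0.06. At an unadjusted p under 0.05 by limma, 2 of the 17 were lower, near the 14.5% of all genes, and 2 higher, beside 3873 of 45037 probe sets. Phlda3 rose by 1.49 against MEKi (SE 0.22, adjusted p = 0.0496) and differed by 1.16 from control (adjusted p = 0.052), while Mdm2 (-0.39), Aen (-0.57) and Zmat3 (0.35) did not pass.

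Genes of mitosis were lower in the same tumors. All 23 had a lower mean than control, with a median of -1.08. By limma 0 passed against control, 18 against CD40 and 0 against MEKi, beside 0%, 3.29% and 0.786% of all genes. At an unadjusted p under 0.05 the counts were 23, 23 and 21. Beside them stand 14.5% of all genes against control, and 4766 and 5318 of 45037 probe sets against CD40 and MEKi. In the 16-array fit 23, 19 and 15 were called lower, beside 9.40%, 7.98% and 8.35% of all genes. Cenpe, Kif23 and Bub1b, proteins of the kinetochore, the midbody and the spindle checkpoint, fell against CD40, with differences of -0.89, -1.11 and -0.89. Per tumor the mitosis mean was -1.06, -0.66, -1.61 and -1.01 from the control mean in MEKi+CD40 tumors 1 to 4. Of these, tumor 3 was the lowest and tumor 2 the highest in both lists. The mitosis mean was -0.52 in control tumor 2, the lowest control in both lists, where the mean of the factors was -0.24. In MEKi tumor 4 the mitosis mean was -0.71 and the mean of the factors 0.03. Whether the lists moved together was not tested.

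Marker lists of the cells in the tumors were read in the same way. The mean of 10 melanocyte markers was -0.08, 0.18, 0.27 and 0.17 from the control mean in MEKi+CD40 tumors 1 to 4, and without Oca2 it was -0.15, 0.08, 0.14 and 0.10. The median difference of the 10 from control was 0.05, and 5 of them (Tyrp1, Dct, Pmel, Mlana and Gpnmb) read 13.77 or more in every tumor, near the highest value on any array. Oca2 differed by 0.97 from control. Of the 10, Oca2 alone passed in a comparison of 8 arrays (0.96 higher than CD40, adjusted p = 0.035). Leukocyte markers (14 of 14 above background in every tumor) averaged 7.62 to 9.43 in control, 9.10 to 11.12 in CD40, 6.36 to 8.26 in MEKi and 7.47 to 10.39 in MEKi+CD40 tumors. Arhgdib alone of the 14 passed, with a difference of -0.69 from CD40 (adjusted p = 0.041). In MEKi+CD40 tumors 13 of the 14 were lower than in CD40 tumors (median -0.91) and 13 higher than in MEKi tumors (median 2.01). Against MEKi, 11 were higher and 1 lower at an unadjusted p under 0.05 by limma, beside 3829 and 5318 of 45037 probe sets. At that threshold 12 were higher in CD40 and 9 lower in MEKi tumors than in control, beside 4.04% and 4.21% of all genes. The means of the factors in the CD40 and MEKi groups, which had the highest and lowest mean leukocyte signal, were both 0.08 above control. Fibroblast markers (10 of 10 above background) averaged 7.91 to 8.57 in control and 7.62 to 12.10 in MEKi+CD40 tumors, where tumor 2 was lowest and tumor 1 highest, and ranged from 7.66 to 10.85 in CD40 and from 7.72 to 10.92 in MEKi tumors. Endothelial markers averaged 6.80 to 7.20 in control and 6.86 to 8.52 in MEKi+CD40 tumors. In MEKi+CD40 tumors 2 and 4, 6 of 15 muscle genes were above background, as in the 4 controls, and Myh4 and Ttn were not. The part of leukocytes, fibroblasts and endothelium in the difference of the factors was not tested.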

How the data were processed

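RNA of B16-OVA tumors of 16 mice was labelled by the authors (200 ng, 3′ IVT Plus kit) and hybridized to Affymetrix mouse arrays. The deposited log2 values were made by the authors with RMA in Chipster, of which no version is given in the sources used here, and were used without further normalization. RMA fits the arrays to a common distribution, which removes any shift shared by all genes. Groups were taken from the labels, which state 4 mice per group. Tests ran over 45037 probe sets, after removal of 64 for array controls. Of these 34945 carried 1 gene symbol, 932 several and 9160 none. The background level was the 95th percentile of 44 olfactory receptor probe sets. The number of arrays and the spread between tumors limit the precision.

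The study's methods compare 2 groups at a time by an empirical Bayes test, so the 8 arrays of each comparison were fitted in limma 3.58.1 (R 4.3.3) with lmFit and eBayes, and p-values were adjusted by Benjamini-Hochberg over all probe sets. The interaction was fitted on 16 arrays. The procedure was also run on simulated data, with independent values and the same spread in all groups. The spread of the factors differed between the groups of tumors, so that run does not bear on the calls reported. Tables were made with pandas 2.3.3 under Python 3.11.15.

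All factors may be named, and values in every tumor are given for the 2 factors of each role with the smallest p in MEKi+CD40 minus control and for Fbl, Ncl, Npm1, Polr1a and Dkc1, and of other lists for up to 4 genes by that p and for Myc. The factors and lists were chosen with earlier results of these data known. Alternatives were all arrays in 1 fit, the replicate number as a block, removal of dim probe sets, 1 probe set or the mean of all per gene, median centring, cyclic loess, a trended robust fit, array weights, the muscle mean as a covariate, and leaving out the tumors with muscle transcripts or each tumor. The fit of all arrays without those tumors was added after the data had been seen. Promoter sequences are RefSeq's, build GRCm38.p6.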

Additional observations from a re-analysis of the deposited data

Results flagged for a closer look

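In groups of 4 tumors, 132 sets of values were searched for a tumor that stands apart from the other 3 by Dixon's ratio of its gap to the whole range at the 95% level, which chance alone passes in about 1 of 20 groups, and 10 were found. All 10 were CD40 tumor 3, one of the tumors with muscle transcripts. It was the lowest of its group for Gar1 (9.99 against 10.33 to 10.37, ratio 0.895), Fbl (11.49 against 11.88 to 11.91, ratio 0.929) and Dkc1 (10.17 against 10.61 to 10.68, ratio 0.863). The same held for the mean of the 40 factors (9.95 against 10.19 to 10.20, ratio 0.965), of the box H/ACA proteins (ratio 0.863) and of the other assembly factors (ratio 0.873). It was the highest for the means of the p53 targets (ratio 0.865), skeletal muscle (7.41 against 4.55 to 4.65, ratio 0.966), fibroblast (10.85 against 7.66 to 8.00, ratio 0.893) and endothelial markers (ratio 0.905). Their part in the lower factors of that tumor was not tested. Without it the median difference of the factors from control in the CD40 group was 0.16 in place of 0.08, and 6 in place of 17 factors were called lower in MEKi+CD40 against CD40.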

How the results depend on the processing

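All 40 factors were lower in MEKi+CD40 tumors than in control, CD40 and MEKi tumors under every alternative run. The medians ran from -0.68 to -0.50, -0.80 to -0.60 and -0.75 to -0.59, and from -0.86 to -0.66 for the interaction. With 1 tumor left out at a time they ran from -0.72 to -0.51, -0.83 to -0.61, -0.81 to -0.58 and -0.90 to -0.69. The number called was not stable, and the cause was not tested. With a filter or 1 probe set per gene there were also fewer tests to adjust for. The counts for control, CD40 and MEKi as the reference were 0, 17 and 6 as reported. They were 30, 35 and 31 with all 16 arrays in 1 fit, 15, 21 and 17 with a filter on low signal, 13, 20 and 17 with 1 probe set per gene, and 5, 17 and 9 with the mean of all probe sets. They were 4, 19 and 7 with a trended robust fit, 20, 31 and 25 with array weights (20 for the interaction), 0, 12 and 0 with median centring, and 0, 18 and 0 with cyclic loess. With the muscle score as a covariate they were 9, 29 and 18, without the 3 muscle tumors 0, 12 and 0, and in 1 fit without them 6, 24 and 14. Leaving out 1 tumor at a time gave 0 to 18, 0 to 24 and 0 to 21, and 0 to 16 for the interaction (0% to 1.30% of all genes). The share of all genes called lower, in the same order, was 9.40%, 7.98% and 8.35% with 16 arrays, 6.36%, 6.28% and 4.13% with the filter, 4.71%, 4.46% and 2.67% with 1 probe set per gene, and 2.66%, 3.46% and 1.87% with the mean. It was 1.37%, 3.25% and 0.978% with the trended fit, 6.12%, 6.90% and 4.47% with array weights, 0%, 2.06% and 0% with median centring, 0%, 3.97% and 0% with loess, and 2.53%, 6.89% and 2.69% with the covariate. With the replicate number as a block, 0, 0 and 0 factors and 0% of all genes were called. The numbers name the tumors only. Correlations of the deviations of same-numbered tumors ran from -0.52 to 0.42 between groups. Between MEKi+CD40 and CD40 they were -0.52, 0.29, 0.18 and 0.42 for tumors 1 to 4. Between MEKi+CD40 and MEKi they were -0.06, 0.31, 0.09 and 0.07. With mixed signs, they do not settle which fit is better founded. No factor was called higher under any alternative. For the 15 factors followed tumor by tumor, no called difference changed sign, and 47 of 1875 values, all for a single agent against control, changed sign without a call. With 4 tumors a group and a factor SD of 0.34 under the combination, small differences could not be called.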

Other observations

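The array also carries probe sets for 18S ribosomal RNA, which the labelling by oligo-dT reaches only in part. The 3′ probe set read 10.99, 11.51, 11.75 and 12.94 in control tumors and 10.81, 11.32, 10.75 and 10.87 in MEKi+CD40 tumors. In CD40 tumors it read 10.81, 12.85, 13.16 and 11.27, and in MEKi tumors 12.02, 11.17, 12.24 and 11.56. The ranges overlap, and the values are no measure of the amount of ribosomal RNA.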
